A study of Brassica juncea with 21 samples.

Results

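The transcripts described here are those of Brassica juncea whose product name contains the words cytochrome P450, 58 genes of the 13879 gene identifiers (LOC numbers) in the deposited table. They were found by a search of the product names, which returned 59 rows. The gene CYP71B28 had 2 transcript variants, and the one with the higher mean over the groups was used. That choice did not use any difference between groups. The members themselves were chosen with earlier results of these data known. Of the 58, 54 are named as P450 enzymes, in 18 families and 22 subfamilies, and 4 are named as P450 reductases, which are partners of the P450s and not P450s themselves. All 58 passed the low-value filter, which asked for 1 or more in any 3 of the groups.

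Brassica juncea is a mustard whose flowers carry lateral and median nectaries, the glands that release nectar. Lateral and median nectaries were each dissected by hand at the pre-secretory stage (24 h before anthesis), at the secretory stage (full anthesis, 4 to 8 h after dawn) and 12 h later, after secretion had ended (post-secretory), and leaf was taken at the time of the secretory stage. Each nectary RNA sample pooled about 100 nectaries of plants about 40 days old. Growth was at 21 °C with 16 h of light and 8 h of dark. Since post-secretory nectaries were taken 12 h after secretory ones, stage and time of day cannot be told apart between them. The labels list 21 libraries, 3 in each of 7 groups, with no transgene, mutation or treatment in any of them. For each transcript the table holds 1 normalized value per group, a whole number, so the spread between the 3 libraries is unknown, no test was possible, and "higher" and "lower" mean a difference of at least 2-fold between group values. Fold differences are given as log2 differences of the value plus a pseudocount of 1, which understates differences of low values.

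Cytochrome P450s are haem enzymes, most of them anchored in the endoplasmic reticulum, that insert oxygen into small molecules with electrons passed on by a P450 reductase. In plants they build and break down hormones, lignin precursors, terpenoids, surface lipids and defence compounds such as the glucosinolates of the mustard family. P450s of the same number belong to one family and those of the same number and letter to one subfamily. The table is keyed by matches to Brassica rapa, one of the parent species of this polyploid mustard, so copies from its other parent are not told apart. Reads of near-identical neighbouring genes may also have been split between rows, so values of single copies are uncertain to that degree. No sequences are shown, because the table gives none.

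The values of a column summed to between 7081592 (lateral nectaries after secretion) and 11197495 (median nectaries at secretion), with column medians of 168 to 192. The lateral post-secretory column alone lacks the header mark UQN, read here as upper-quartile normalized, and was taken to hold the same value. As sums, the markers followed the labelled tissues: 5 nectary markers (CRC, SWEET9, CWINV4, PIN6 and MYB21, 7 transcripts) summed to 17128 to 369375 in the nectary groups and to 248 in leaf. PIN6 alone did not separate lateral nectaries before and after secretion (32 and 15) from leaf (35). The 5 photosynthesis markers summed to 40795 to 100115 in nectaries and to 1153071 in leaf. Of 5 pollen markers 3 were found, and their 4 transcripts summed to 600, 3909 and 2984 before, during and after secretion in lateral nectaries, to 1123, 6110 and 9677 in median nectaries and to 176 in leaf. Of 6 tapetum markers only A9 was found, listed at 1 to 29 in nectaries and 105 in leaf. The 2 phloem markers found summed to 138 to 911 in lateral nectaries, 14 to 90 in median nectaries and 1423 in leaf.

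The P450s and reductases spanned a wider range between groups than the table as a whole. In bulk tissue such as this, fewer cells of a type and less RNA per cell cannot be told apart. Among the 51 members never listed at 0, the median ratio of the highest to the lowest group value was 27.5, against 4.1 over the 13993 such transcripts of the table. For 15 members this ratio was at least 100, and for 3 it was under 3. The shares of all transcripts past these limits are not given here. Of the 58 members, 14 (24.1%) had their highest value in median post-secretory nectaries, 12 (20.7%) in leaf, 11 (19%) in lateral secretory and 10 (17.2%) in median secretory nectaries. Over all 14390 transcripts compared, 12.5% were highest in median post-secretory nectaries, 20.6% in leaf, 23.2% in lateral secretory and 9.68% in median secretory nectaries. In lateral pre-secretory nectaries 1 member (1.72%), CYP81D1 LOC103846791, had its highest value (55), as did 11% of all transcripts.

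**Figure D1:**
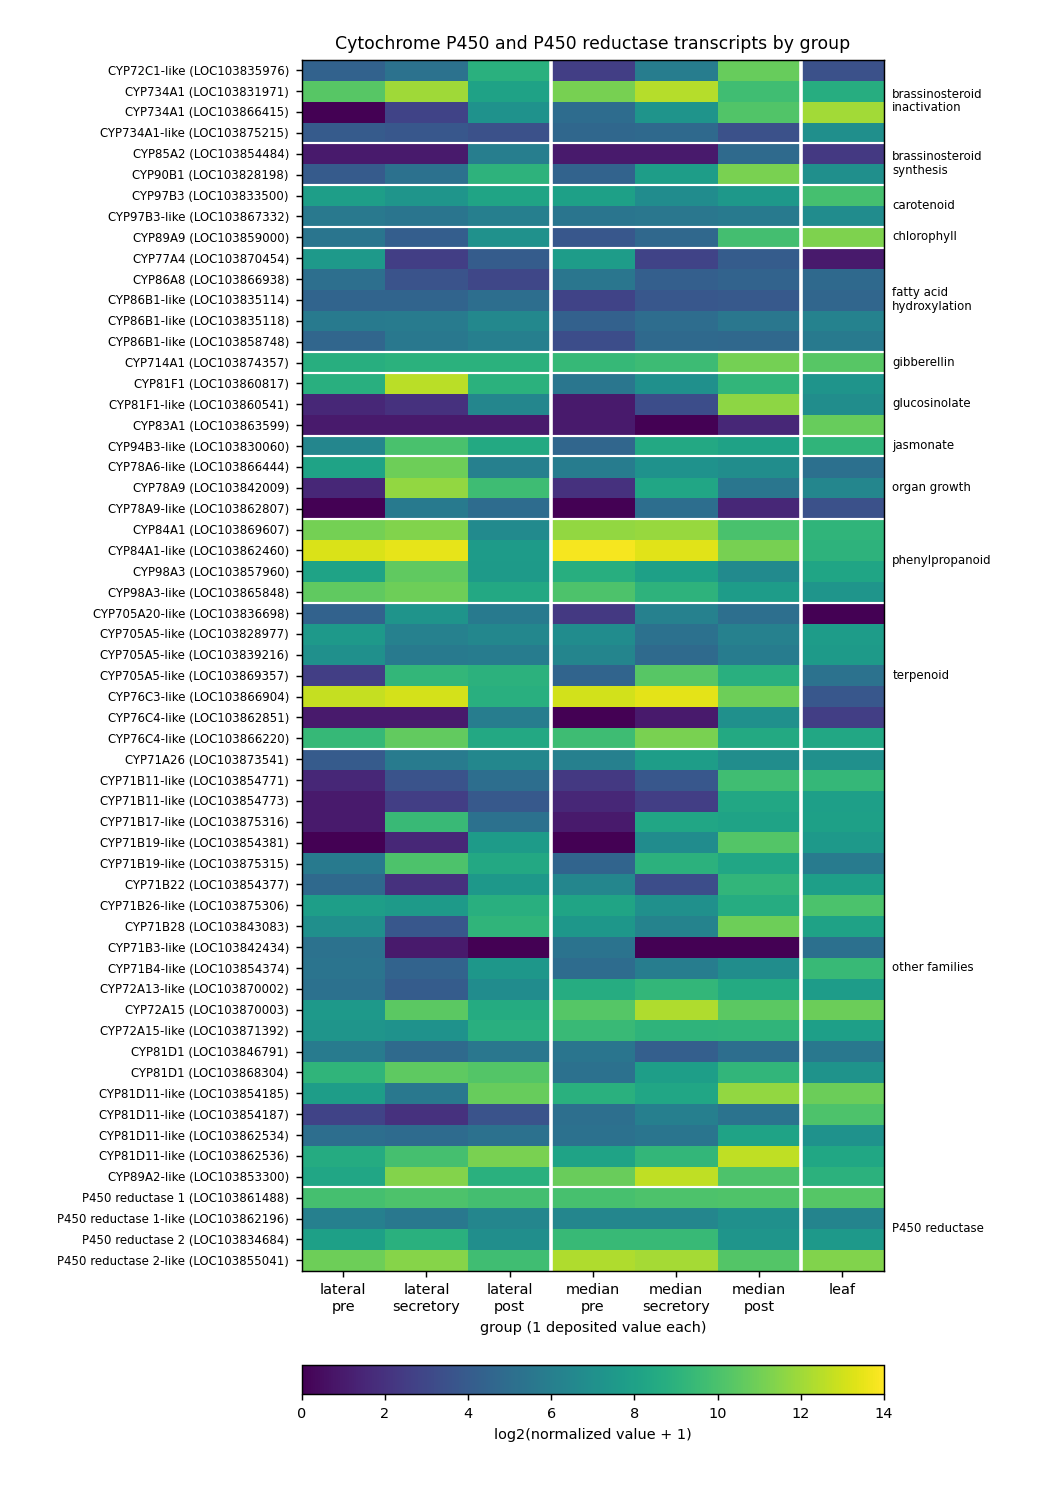
Deposited value of each of the 54 P450s and 4 P450 reductases (rows, by role) in the 6 nectary groups and leaf (columns), as log2 of the value plus 1 from 0 (dark) to 14 (bright). CYP84A1-like (LOC103862460) and CYP76C3-like (LOC103866904) are bright before and during secretion in both nectary types and dimmer after it, more so in lateral nectaries. Along their own rows, CYP81D11-like (LOC103862536) and CYP90B1 are brightest in median post-secretory nectaries.

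The CYP78A enzymes, which promote organ growth in Arabidopsis, were highest in lateral nectaries at secretion in all 3 cases, as were 23.2% of all transcripts. CYP78A9 (LOC103842009) was listed at 2, 3407 and 816 in lateral nectaries before, during and after secretion, at 3, 315 and 44 in median nectaries and at 85 in leaf. CYP78A6-like (LOC103866444) was listed at 274, 1959 and 67 in lateral nectaries, at 57, 138 and 115 in median nectaries and at 35 in leaf. The second CYP78A9 copy (LOC103862807) followed the first at a low level, with 0, 51 and 30 in lateral nectaries, 0, 32 and 2 in median nectaries and 10 in leaf. Secretory and pre-secretory CYP78A9 differed by a log2 of 10.15 in lateral and 6.30 in median nectaries, and CYP78A6-like by 2.83 and 1.26. At secretion, lateral nectaries exceeded median ones by 3.43 for CYP78A9 and by 3.82 for CYP78A6-like. After secretion the 2 genes parted: CYP78A9 was still 4.18 higher in lateral than in median nectaries, while CYP78A6-like was within 2-fold (−0.77). The Arabidopsis gene matched to CYP78A9 lies on chromosome 3 from 22905979 to 22907890 on the reverse strand, in a build that the table does not name. The pre-secretory values of 2 and 3 make the size of the CYP78A9 difference depend on the pseudocount, but it stayed at 8.15 in lateral and 4.64 in median nectaries with a pseudocount of 10.

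Enzymes of brassinosteroid synthesis were highest after secretion. CYP90B1 (LOC103828198), known in Arabidopsis as DWF4, carries out an early and limiting hydroxylation on the way to these growth-promoting steroids. It was listed at 15, 36 and 532 in lateral nectaries before, during and after secretion, at 21, 220 and 2300 in median nectaries and at 125 in leaf. CYP85A2 (LOC103854484) is named after the enzyme that makes brassinolide in the last step. It has no Arabidopsis match, so its identity rests on the product name. Its values were low, at 1, 1 and 62 in lateral nectaries, at 1, 1 and 28 in median nectaries and at 4 in leaf. Both exceeded their secretory values after secretion, CYP90B1 by a log2 of 3.85 in lateral and 3.38 in median nectaries and CYP85A2 by 4.98 and 3.86. Of all transcripts, 23.9% were higher after secretion in lateral and 17.5% in median nectaries. Median nectaries held more CYP90B1 than lateral ones after secretion (lateral minus median, −2.11), and CYP85A2 went the other way (1.12).

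CYP72C1-like (LOC103835976) matches an Arabidopsis gene that inactivates brassinosteroids, and it was also highest after secretion. Its values were 20, 38 and 476 in lateral nectaries, 5, 60 and 1743 in median nectaries and 10 in leaf, so that the step from the secretory stage was 3.61 in lateral and 4.84 in median nectaries. The 3 transcripts named CYP734A1, after the inactivating enzyme BAS1, were not alike. LOC103831971 was listed at 1293, 4175 and 271 in lateral nectaries, at 2239, 5530 and 828 in median nectaries and at 426 in leaf. LOC103866415 was listed at 0, 6 and 141 in lateral nectaries, at 30, 152 and 1161 in median nectaries and at 4270 in leaf. The first was thus highest at secretion and the second in leaf, and their Arabidopsis matches are a family 721 and a family 709 gene, so neither is settled to be a brassinosteroid enzyme. The third (LOC103875215), with no Arabidopsis match, lay between 10 and 27 in nectaries and at 125 in leaf.

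CYP714A1 (LOC103874357) is named after a gibberellin-inactivating enzyme. It was listed at 446, 494 and 500 in lateral nectaries, at 661, 767 and 2123 in median nectaries and at 1316 in leaf. Its lateral values hardly differed between stages, and after secretion lateral nectaries were lower than median ones (log2 difference −2.08). The Arabidopsis match given for it is an NFU domain protein, which is no P450, so its identity rests on the product name.

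**Figure D2:**
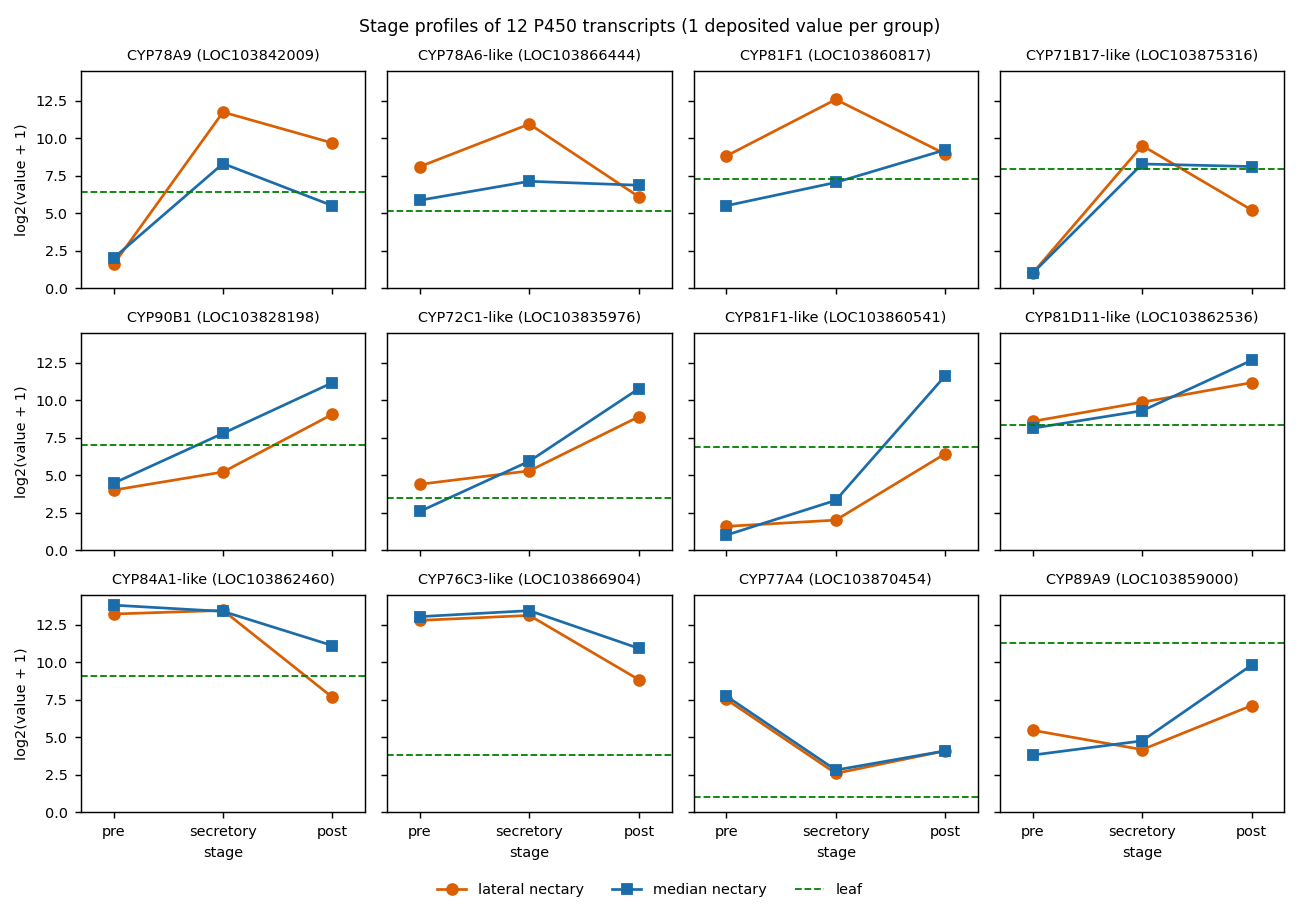
Deposited values, as log2 of the value plus 1, of 12 P450s in lateral nectaries (orange circles) and median nectaries (blue squares) at the 3 stages, with leaf as a dashed line. CYP78A9, CYP78A6-like and CYP71B17-like are highest at secretion in lateral nectaries, CYP90B1, CYP72C1-like and CYP81D11-like are highest after secretion in both types, and CYP81F1 moves in opposite directions after secretion.

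In secretory nectaries, taken as the mean log2 value of both types, 4 of 4 phenylpropanoid enzymes were higher than in leaf, against 26.6% of all transcripts. Their median log2 difference was 2.56 (all transcripts, 0.11). Taken singly, lateral secretory nectaries had 4 of 4 higher and median ones 3 of 4, with CYP98A3 within 2-fold of leaf (−0.26). CYP84A1, or ferulate 5-hydroxylase, leads to sinapate esters and syringyl lignin. CYP84A1-like (LOC103862460) was listed at 9497, 11233 and 201 in lateral nectaries, at 14311, 10723 and 2206 in median nectaries and at 538 in leaf. The second copy (LOC103869607) was listed at 2180, 2579 and 104 in lateral nectaries, at 3409, 3613 and 1009 in median nectaries and at 568 in leaf. Both copies were at like levels before and during secretion and lower after it, with log2 differences of −5.80 and −4.62 in lateral and of −2.28 and −1.84 in median nectaries. In lateral post-secretory nectaries both lay below leaf, and in median ones only LOC103862460 was at least 2-fold above it. Both copies match 1 Arabidopsis gene, on chromosome 4 from 17137584 to 17139619 on the reverse strand.

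CYP98A3, which adds a hydroxyl group to the coumaroyl ring in the same pathway, separated the nectary types at secretion. CYP98A3 (LOC103857960) was listed at 275, 1555 and 200 in lateral nectaries, at 433, 248 and 104 in median nectaries and at 298 in leaf. CYP98A3-like (LOC103865848) was listed at 1526, 1940 and 350 in lateral nectaries, at 1100, 532 and 213 in median nectaries and at 155 in leaf. At secretion lateral nectaries exceeded median ones by a log2 of 2.64 and 1.86, while before secretion the copies were within 2-fold (−0.65 and 0.47). The difference of CYP98A3 from leaf, 1.06, was under 2-fold with same-total scaling, quantile normalization and equal 75th percentiles (0.83 to 0.85). The first enzyme of this pathway that is a P450, trans-cinnamate 4-monooxygenase (LOC103867954), is named without the word P450. It was listed at 1191, 2181 and 728 in lateral nectaries, at 1052, 509 and 782 in median nectaries and at 810 in leaf, which puts it 2.10 higher in lateral than in median nectaries at secretion and, over both types, within 2-fold of leaf (0.38).

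Among enzymes that act on terpenoids, 2 of the 3 CYP76C transcripts were higher in secretory nectaries than in leaf (all transcripts 26.6%). The third, LOC103862851, was lower (all transcripts 25.4%), but only at values of 1 in both types and 5 in leaf. In Arabidopsis, CYP76C enzymes oxidise the floral volatile linalool. CYP76C3-like (LOC103866904) was listed at 7080, 8903 and 456 in lateral nectaries, at 8421, 11101 and 1940 in median nectaries and at 13 in leaf. Against leaf, secretory nectaries differed by a log2 of 9.47, the highest difference of any member in that comparison. CYP76C4-like (LOC103866220) was listed at 670, 1565 and 349 in lateral nectaries, at 805, 2332 and 356 in median nectaries and at 335 in leaf. It was highest at secretion in both types and close to leaf after it. The other CYP76C4-like transcript (LOC103862851) was at 0 or 1 before and during secretion, at 60 (lateral) and 128 (median) after it and at 5 in leaf. CYP76C3-like and LOC103866220 match Arabidopsis genes that lie together on chromosome 2, between 18773541 and 18784286.

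The 4 CYP705A transcripts, of a subfamily with a member that acts on the root triterpene thalianol in Arabidopsis, split in direction. CYP705A5-like LOC103869357 was listed at 5, 626 and 502 in lateral nectaries, at 22, 1340 and 448 in median nectaries and at 38 in leaf. CYP705A20-like (LOC103836698) was listed at 20, 152 and 54 in lateral nectaries, at 4, 70 and 33 in median nectaries and at 0 in leaf. Both were higher at secretion than before it, LOC103869357 by a log2 of 6.71 in lateral and 5.87 in median nectaries and CYP705A20-like by 2.87 and 3.83. The other CYP705A5-like transcripts, LOC103828977 and LOC103839216, had their highest values in leaf, 216 and 199, and were lower at secretion than before it in both nectary types (−1.57 to −1.27).

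The glucosinolate enzymes gave 3 unlike profiles. CYP83A1 (LOC103863599), of aliphatic glucosinolate synthesis, was listed at 0 to 2 in all 6 nectary groups and at 1720 in leaf. CYP81F enzymes hydroxylate the indole ring of indole glucosinolates in Arabidopsis. CYP81F1 (LOC103860817), whose Arabidopsis match is polypeptide 3 of that subfamily, was listed at 448, 6110 and 492 in lateral nectaries, at 44, 131 and 593 in median nectaries and at 153 in leaf. CYP81F1-like (LOC103860541) was listed at 2, 3 and 85 in lateral nectaries, at 1, 9 and 3161 in median nectaries and at 117 in leaf. The first was thus high in lateral nectaries at secretion, 5.53 above median ones on the log2 scale, and the second in median nectaries after secretion, where lateral ones were 5.20 below (−5.20). After secretion CYP81F1 was lower than at secretion in lateral nectaries (−3.63) and higher in median ones (2.17).

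Of the 6 members of subfamily CYP81D, 3 were highest in median nectaries after secretion (all transcripts 12.5%). The subfamily includes the stress-inducible CYP81D11 of Arabidopsis. CYP81D11-like LOC103862536 was listed at 384, 930 and 2298 in lateral nectaries, at 279, 627 and 6437 in median nectaries and at 320 in leaf. CYP81D11-like LOC103854185 was listed at 217, 47 and 1741 in lateral nectaries, at 477, 314 and 3338 in median nectaries and at 1879 in leaf. The Arabidopsis match of LOC103862536 is polypeptide 8 of CYP81D, and the first match of LOC103854185 is polypeptide 5. LOC103854185 also matches the gene matched by LOC103854187, which is described there without a family number. For LOC103862536 the name CYP81D11 therefore rests on the product name alone. Of the 6 CYP81D transcripts, 3 were higher after than during secretion in lateral and 4 in median nectaries, and none was lower (medians 1.00 and 2.03, all transcripts 0.06 and −0.05). Of all transcripts 23.9% were higher in lateral and 17.5% in median nectaries. CYP81D11-like LOC103862534 lay between 29 and 281, and LOC103854187 was listed at 1101 in leaf and at 3 to 65 in nectaries. CYP81D1 (LOC103868304) was listed at 577, 1485 and 1204 in lateral nectaries, at 37, 229 and 585 in median nectaries and at 145 in leaf, and was higher in lateral than in median nectaries throughout (3.93, 2.69 and 1.04 over the 3 stages). The pollen marker sum was also higher after than during secretion in median nectaries, but lower in lateral ones, and its part in these differences was not tested.

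The CYP71B subfamily was the largest, with 10 members. Against leaf, 8 of 10 were lower and 1 higher in secretory nectaries (median −3.81), where 25.4% of all transcripts were lower and 26.6% higher. After secretion, 7 of 10 exceeded their secretory value in lateral nectaries and 3 were lower, and in median nectaries 6 were higher and 0 lower. The medians of the 10 were 1.39 and 2.52, and over the whole table the higher and lower shares were 23.9% and 18.5% in lateral and 17.5% and 15% in median nectaries. CYP71B28 (LOC103843083) was listed at 123, 13 and 565 in lateral nectaries, at 172, 76 and 1931 in median nectaries and at 268 in leaf, and its other transcript variant had the same order of stages in both types. CYP71B22 (LOC103854377) was listed at 27, 3 and 178 in lateral nectaries, at 85, 9 and 583 in median nectaries and at 240 in leaf. Both were lowest at secretion. The CYP71B11-like transcripts LOC103854771 and LOC103854773 shared a profile in which median post-secretory nectaries (842 and 330) and leaf (636 and 239) stood apart from the other nectary groups (at most 32).

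Copies matched to the same Arabidopsis gene could differ. Of the CYP71B19-like transcripts, LOC103854381 was listed at 0, 2 and 208 in lateral nectaries, at 0, 113 and 1212 in median nectaries and at 187 in leaf. LOC103875315 was listed at 53, 1078 and 352 in lateral nectaries, at 22, 501 and 316 in median nectaries and at 55 in leaf. At secretion, lateral minus median was −5.25 for the first and 1.10 for the second. CYP71B17-like (LOC103875316) was listed at 1, 723 and 36 in lateral nectaries, at 1, 309 and 274 in median nectaries and at 249 in leaf. Its step at the onset of secretion, 8.50 in lateral and 7.28 in median nectaries, was among the 3 highest of all members in each type. CYP71B26-like (LOC103875306) and CYP71B4-like (LOC103854374) were highest in leaf, at 1043 and 698, and CYP71B3-like (LOC103842434) was at 38 in lateral and 39 in median nectaries before secretion, at 0 or 1 in their later stages and at 35 in leaf.

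CYP72A transcripts were lower in lateral than in median nectaries, 3 of 3 both before secretion (all transcripts 4.42%) and during it (13%). CYP72A15 (LOC103870003) was listed at 187, 1446 and 385 in lateral nectaries, at 1259, 5145 and 1445 in median nectaries and at 1842 in leaf. CYP72A13-like (LOC103870002) was listed at 36, 16 and 111 in lateral nectaries, at 406, 622 and 377 in median nectaries and at 214 in leaf. Lateral minus median was −2.74, −1.83 and −1.91 over the 3 stages for CYP72A15 and −3.46, −5.20 and −1.75 for CYP72A13-like. The third (LOC103871392) differed by −2.19 and −1.99 before and during secretion and was within 2-fold after it. CYP89A2-like (LOC103853300) had a like profile, with 307, 2703 and 470 in lateral nectaries, 1816, 6459 and 1107 in median nectaries and 501 in leaf. CYP71A26 (LOC103873541) lay between 15 and 222 and was highest in median nectaries at secretion.

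The remaining members belong to chlorophyll breakdown, carotenoids, surface lipids and jasmonate turnover. CYP89A9 (LOC103859000), which oxidises chlorophyll breakdown products in senescing Arabidopsis leaves, was listed at 43, 17 and 137 in lateral nectaries, at 13, 26 and 897 in median nectaries and at 2536 in leaf. It exceeded its secretory value after secretion by 2.94 in lateral and 5.06 in median nectaries. Both CYP97B3 transcripts, chloroplast proteins related to carotenoid hydroxylases, were highest in leaf (952 and 110) and lay between 112 and 283 and between 42 and 66 in nectaries. Of 5 enzymes of fatty acid hydroxylation, used for cutin and suberin, CYP77A4 (LOC103870454) varied most. It was listed at 182, 5 and 16 in lateral nectaries, at 212, 6 and 16 in median nectaries and at 1 in leaf, which makes it the member with the lowest step at the onset of secretion in lateral nectaries (−4.93). CYP86A8 (LOC103866938), a cutin enzyme, lay between 7 and 44, and the 3 CYP86B1-like transcripts, named after a suberin enzyme, between 6 and 91. One of them, LOC103858748, has its Arabidopsis match in family 96, so its place among the suberin enzymes rests on the product name. All 3 were higher in lateral than in median nectaries before secretion, by a log2 of 1.32 to 1.72 (all transcripts 7.92% higher). CYP94B3-like (LOC103830060) is named after an enzyme that inactivates jasmonoyl-isoleucine, but its first Arabidopsis match is in subfamily CYP94D. It was listed at 86, 1007 and 364 in lateral nectaries, at 24, 346 and 271 in median nectaries and at 568 in leaf.

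Against leaf, members differed more often than transcripts in general. In secretory nectaries, taken as the mean log2 value of both types, 20 of 58 members (34.5%) were higher than in leaf, against 26.6% of all transcripts, and 25 (43.1%) were lower, against 25.4%. Taken singly, lateral secretory nectaries had 21 members higher than leaf (36.2%, all transcripts 29.6%) and 27 lower (46.6%, all transcripts 27.7%). Median secretory nectaries had 19 higher (32.8%, all transcripts 25.1%) and 23 lower (39.7%, all transcripts 25.2%). Besides CYP76C3-like, and CYP705A20-like, which was listed at 0 in leaf, the highest differences were in CYP705A5-like LOC103869357 (4.56), CYP84A1-like (4.35) and CYP78A6-like (3.86). Besides CYP83A1, with 1 and 0 in secretory lateral and median nectaries, the lowest were in CYP734A1 LOC103866415 (−7.03), CYP89A9 (−6.85), CYP81D11-like LOC103854187 (−6.08) and CYP71B11-like LOC103854771 (−5.62). Leaf is the only other tissue, so secretion, floral origin and gland identity cannot be told apart here.

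The balance against leaf differed between stages. Before secretion 30 of 58 members (51.7%) were lower than in leaf in lateral nectaries, with 19.8% of all transcripts, and 30 in median nectaries, with 20.1%. Those higher were 10 (17.2%, all transcripts 23%) in lateral and 11 (19%, all transcripts 21.8%) in median nectaries. In post-secretory median nectaries 20 (34.5%) were higher, against 22% of all transcripts, and 16 (27.6%) were lower, against 20.9%. With same-total scaling of the columns, that split was 25 higher and 13 lower. In post-secretory lateral nectaries 16 (27.6%) were higher, against 19.7%, and 21 (36.2%) lower, against 14.7%. The lateral balance depended on the scaling: same-total scaling gave 18 higher and 17 lower. All of these comparisons share the leaf value, so they are not independent of each other.

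The summed P450 values made up 0.347%, 0.499% and 0.223% of the column total in lateral nectaries before, during and after secretion, 0.455%, 0.478% and 0.521% in median nectaries and 0.262% in leaf. The make-up of the sum differed more than its size. CYP84A and CYP76C together held most of the sum before secretion, with 42.8% and 28.4% of it in lateral and 46.4% and 24.1% in median nectaries. After secretion CYP84A held 1.93% in lateral and 7.93% in median nectaries, and CYP81D held 33.8% and 26.4%. CYP78A held 9.8% in lateral secretory nectaries and at most 5.78% in any other group. Whether the deposited values are per transcript length is not stated, so these shares compare groups and not the abundance of one gene with another.

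**Figure D3:**
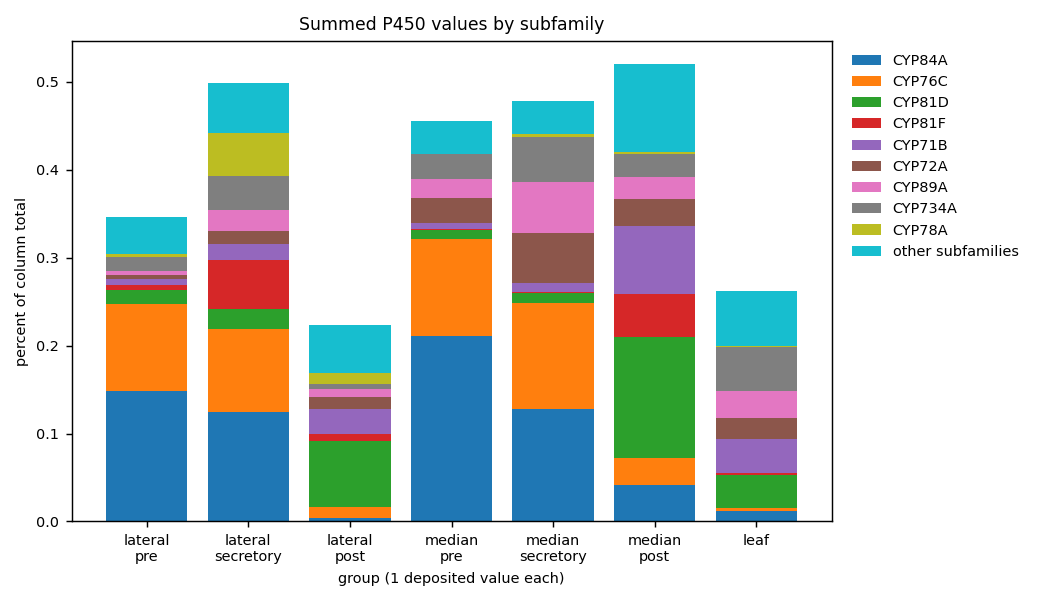
Summed values of the 54 P450s as a percent of the column total (y axis, from 0) in each group, split by subfamily. CYP84A and CYP76C make up most of the bar before secretion, and CYP81D and CYP71B take larger parts after secretion, when the lateral bar is at 0.223% and the median bar at 0.521%.

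More members were higher than lower in secretory relative to pre-secretory nectaries, in both nectary types. In lateral nectaries 22 of 58 members (37.9%) were higher at secretion, against 21.5% of all transcripts, and 10 (17.2%) were lower, against 23.6%. In median nectaries 38 members (65.5%) were past 2-fold, against 36% of all transcripts, 26 of them higher and 12 lower, while of the 14390 transcripts 2533 were higher and 2645 lower. Of the members, 21 (36.2%) were higher in both types, against 13.4% of all transcripts, 7 (12.1%) were lower in both, against 14.6%, and 0 went opposite ways, against 0.528%. Across the 58 members, lateral and median steps had a Pearson's r of 0.85, given as a description, since copies share sequence, and it was 0.82 over all transcripts.

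Among members not listed at 0 before secretion, the highest steps at its onset were in CYP78A9, CYP71B17-like, CYP705A5-like LOC103869357, CYP71B19-like LOC103875315 (4.32 in lateral and 4.45 in median nectaries) and, in lateral nectaries, CYP81F1 (3.77). In median nectaries CYP71B19-like LOC103854381, at 113 during secretion, was listed at 0 before it. CYP78A9-like LOC103862807, at 51 in lateral and 32 in median nectaries during secretion, was listed at 0 before it in both. In lateral nectaries the lowest were in CYP77A4 (−4.93), CYP71B3-like (−4.29), CYP71B28 (−3.15), CYP71B22 (−2.81) and CYP81D11-like LOC103854185 (−2.18). In median nectaries, besides CYP71B3-like, listed at 0 at secretion, they were in CYP77A4 (−4.93), CYP71B22 (−3.10) and CYP705A5-like LOC103828977 (−1.57). CYP71B28 was at −1.17 there. With same-total scaling the lateral split was 18 higher and 15 lower in place of 22 and 10, and the median of the members was −0.20 in place of 0.29, a change of sign, while that of all transcripts was −0.53 in place of −0.04. Transcripts of 3 handling-stress markers (ZAT12, JAZ10 and a small heat shock protein) summed to 6146 in secretory and 1451 in pre-secretory lateral nectaries. In median nectaries they summed to 3401 and 1050. In lateral nectaries the JAZ10 copy LOC103846592 was lower at secretion (814) than before it (945), while the other transcripts of the list were higher. The part of these markers in the P450 differences was not tested.

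**Figure D4:**
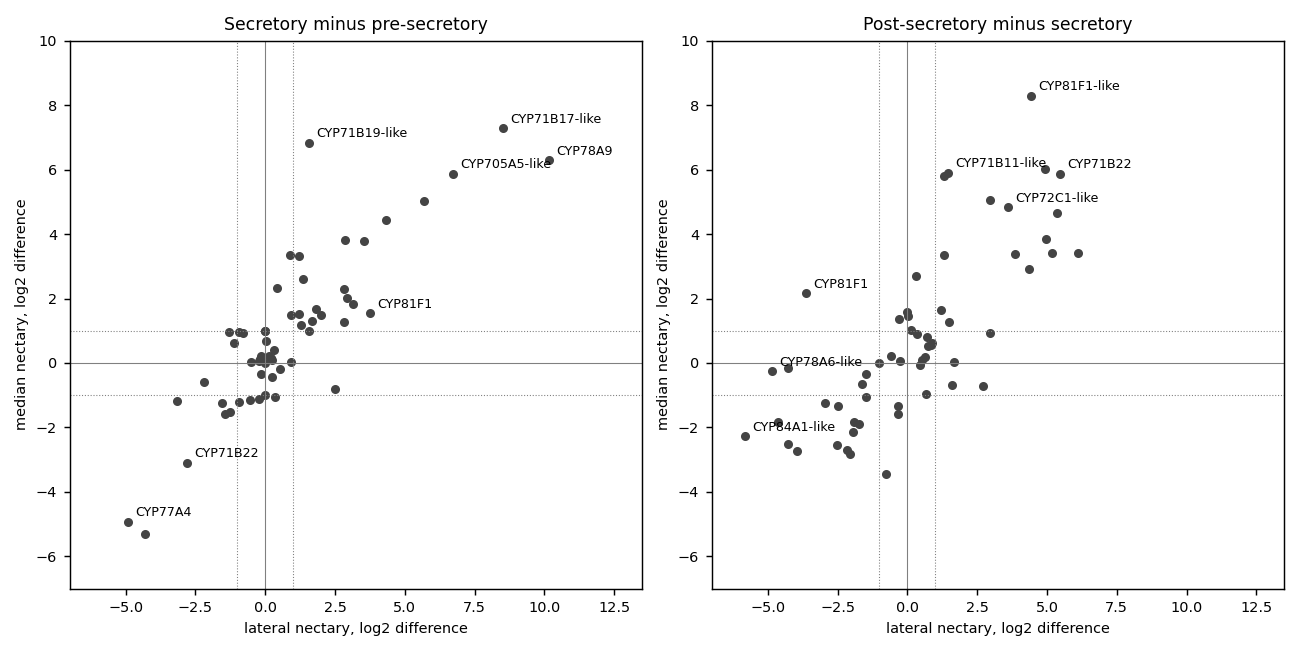
Log2 differences of the 58 members in lateral (x axis) and median nectaries (y axis), for secretory minus pre-secretory (left) and post-secretory minus secretory (right), with dotted lines at 2-fold; points of members listed at 0 rest on the pseudocount. On the left no member past 2-fold in both types lies in an opposite-sign corner, and on the right CYP81F1 does, at −3.63 and 2.17.

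Post-secretory and secretory nectaries differed both ways. In lateral nectaries 20 of 58 members (34.5%) were higher after secretion, against 23.9% of all transcripts, and 19 (32.8%) were lower, against 18.5%. In median nectaries 22 (37.9%) were higher, against 17.5%, and 16 (27.6%) lower, against 15%. In both types 16 members (27.6%) were higher, against 12.1% of all transcripts, and 13 (22.4%) lower, against 8.65%. CYP81F1 went opposite ways (1.72% of members, against 1.09%). Pearson's r between types was 0.75 across members and 0.70 across all transcripts, again as a description. With same-total scaling the lateral split was 28 higher and 15 lower and the median split 28 and 12. The steps share the secretory values with those at the onset of secretion, so opposite steps of a member are not independent.

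Higher after secretion were, in lateral nectaries, CYP71B19-like LOC103854381 (6.12), CYP71B22 (5.48), CYP71B28 (5.34), CYP81D11-like LOC103854185 (5.18) and CYP85A2 (4.98). In median nectaries they were CYP81F1-like (8.30), CYP76C4-like LOC103862851 (6.01), CYP71B11-like LOC103854771 (5.91) and LOC103854773 (5.79), and CYP71B22 (5.87). Lower after secretion were CYP84A1-like (−5.80), CYP78A6-like (−4.85), CYP84A1 (−4.62), CYP71B17-like (−4.29) and CYP76C3-like (−4.28) in lateral nectaries. In median nectaries they were CYP78A9-like LOC103862807 (−3.46, with values of 2 and 32), CYP78A9 (−2.81), CYP734A1 LOC103831971 (−2.74), CYP76C4-like LOC103866220 (−2.71), CYP89A2-like (−2.54) and CYP76C3-like (−2.52). CYP78A6-like and CYP71B17-like were within 2-fold in median nectaries (−0.26 and −0.17).

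After secretion more members were lower than higher in lateral relative to median nectaries. At this stage 24 of 58 members (41.4%) were lower in lateral than in median nectaries, against 9.41% of all transcripts, and 7 (12.1%) were higher, against 12.6%. At secretion 16 (27.6%) were lower, against 13%, and 12 (20.7%) higher, against 14.7%. Before secretion 12 (20.7%) were lower, against 4.42%, and 12 higher, against 7.92%. The members lowest in lateral relative to median nectaries after secretion were CYP81F1-like (−5.20), both CYP71B11-like transcripts (−4.67 and −4.46), CYP84A1-like (−3.45) and CYP84A1 (−3.27). Those highest were CYP78A9 (4.18) and its copy (3.37). The lateral post-secretory column is the one without the normalization mark. Its 75th percentile (476) was already near that of the median post-secretory column (482), so equal 75th percentiles could hardly change this split. That scaling, chosen after the data were seen, left 24 lower and 7 higher, and the part of the missing mark was not tested. The pollen marker sum was 2984 in lateral and 9677 in median nectaries at this stage, and its part in the P450 differences was not tested.

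The reductases pass electrons to the P450s. P450 reductase 1 (LOC103861488) was listed at 941, 1098 and 904 in lateral nectaries, at 987, 1098 and 1141 in median nectaries and at 1273 in leaf, so that no group was 2-fold from another. P450 reductase 2-like (LOC103855041) was listed at 1926, 2767 and 827 in lateral nectaries, at 5095, 4467 and 1206 in median nectaries and at 2620 in leaf. The second copy, P450 reductase 2 (LOC103834684), was listed at 243, 468 and 121 in lateral nectaries. In median nectaries it was listed at 686 before and 158 after secretion, with a secretory value close to the earlier one (log2 difference 0.04), and in leaf at 189. Both copies of reductase 2 were lower after secretion than during it, with log2 differences of −1.74 and −1.94 in lateral and of −1.89 and −2.15 in median nectaries, and reductase 1 did not differ by 2-fold. P450 reductase 1-like (LOC103862196) lay between 47 and 127. Of 8 transcripts for cytochrome b5, a second electron carrier to some P450s, and for cytochrome b5 reductases, 5 were lower and 1 higher after secretion in lateral nectaries (all transcripts 18.5% lower and 23.9% higher), and 3 were lower and 0 higher in median ones (all transcripts 15% and 17.5%).

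A list of P450 enzymes known by other names held 8 measured transcripts. Of these, 4 were higher and 1 lower in secretory nectaries than in leaf (median 1.53), against 26.6% higher and 25.4% lower of all transcripts (median 0.11). The transcripts of abscisic acid 8'-hydroxylase 3, which inactivates abscisic acid, were higher at secretion than before it. LOC103827806 was listed at 32, 430 and 263 in lateral nectaries, at 4, 292 and 175 in median nectaries and at 40 in leaf, and LOC103839129 at 13, 160 and 124 in lateral nectaries, at 4, 141 and 72 in median nectaries and at 15 in leaf. A transcript named allene oxide synthase 2 (LOC103860780), whose Arabidopsis match is a hydroperoxide lyase, was listed at 5894, 1581 and 955 in lateral nectaries, at 8639, 5537 and 2019 in median nectaries and at 110 in leaf. Allene oxide synthase itself (LOC103848557), the P450 that starts jasmonate synthesis from a hydroperoxide, was listed at 179, 27 and 50 in lateral nectaries, at 209, 12 and 48 in median nectaries and at 89 in leaf. Both were lower at secretion than before it in lateral nectaries (−1.90 and −2.68). In median nectaries allene oxide synthase 2 was within 2-fold (−0.64) and allene oxide synthase was lower (−4.01). Sterol 14-demethylase (LOC103871918), of membrane sterol synthesis, was listed at 414, 652 and 409 in lateral nectaries, at 1599, 803 and 264 in median nectaries and at 373 in leaf.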

How the data were processed

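RNA of lateral and median nectaries at 3 stages and of leaf was sequenced as 50 bp paired-end reads, per the labels' protocols. The authors deposited 1 score per transcript and group, a whole-number normalized value whose columns, per the file headers, carry the mark UQN (all but lateral post-secretory). For aligning, counting and combining the 3 libraries of a group, no method is given in the sources used here, so the depth behind a value and its replicate error are unknown. Of 14398 transcripts, 14390 reached 1 in 3 or more groups and were kept. Differences were taken between log2(value + 1) of 2 groups, first-named minus second, over the whole table, and called at 2-fold in 14 comparisons, with no test. Members named are the 5 with the largest differences each way per comparison that reached 100 in the group where they were higher, the highest 3 of each role list (all in lists of up to 4) and the 3 highest of each column, 52 of 58. The other 6, and single values printed for them, were added after their values were seen. The members and lists were chosen with earlier results of these data known. Of 16 role lists, 11 had members, and 21 members were in none; those for abscisic acid, cytokinin, strigolactone, camalexin and sterol had 0. Arabidopsis matches were given for 40 members, and of 31 with a family number in both names, 6 differed. Markers were matched by Arabidopsis locus. Alternatives were pseudocounts of 0.1 and 10, 2 other filters, same-total scaling, quantile normalization, all matching rows, members with a family number only and, added after seeing the data, equal 75th percentiles. The calculation was tested on simulated data. Python 3.11.15, numpy 2.4.6, pandas 2.3.3 and matplotlib 3.10.9 were used.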

Additional observations from a re-analysis of the deposited data

Results flagged for a closer look

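CYP81F1 (LOC103860817) differed in direction between the nectary types. Its log2 difference between post-secretory and secretory nectaries was −3.63 in lateral nectaries, where it was listed at 492 after and 6110 during secretion, and 2.17 in median nectaries, where it was listed at 593 after and 131 during secretion. The difference between the types was not tested, since each group has 1 value. Among the 58 members it was the only one past 2-fold in opposite directions in this comparison (1.72%), against 1.09% of all transcripts.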

How the results depend on the processing

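Counts of members at least 2-fold higher or lower, 28 over 14 comparisons, stayed within 1.5 times their value under 9 alternatives, except that with a pseudocount of 10 members higher in lateral than in median nectaries after secretion numbered 4 in place of 7. No named member changed sign while called. Of 416 differences of the 52 named members over 8 comparisons, a pseudocount of 10 took 35 below 2-fold, same-total scaling took 20 below and brought 17 above it, and quantile normalization took 15 below and brought 7 above, and equal 75th percentiles took 6 below and brought 5 above. Same-total scaling moved the median of all transcripts by more than 0.1 (log2): to −0.53 in lateral and −0.37 in median nectaries at the onset of secretion (−0.04 and 0.03 as deposited), and to 0.70 and 0.46 after it (0.06 and −0.05 as deposited). Against leaf it gave medians of −0.11 to 0.61 (0.06 to 0.17 as deposited), and between lateral and median post-secretory nectaries 0.24 (0.11 as deposited). Equal 75th percentiles moved it to −0.19 at the onset of secretion and 0.25 after it in lateral nectaries, and to between −0.17 and 0.01 in all comparisons of pre-secretory or secretory nectaries with leaf. Quantile normalization moved it by more than 0.1 for lateral and median post-secretory nectaries against leaf, to 0 and −0.05. Fold directions between stages and against leaf are therefore relative to that choice. No paired analysis was possible because the table holds 1 value per group, and leaving out single libraries was not run for the same reason. Low values limit the differences of members listed near 0.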

Other observations

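Several members have first-listed Arabidopsis matches that lie next to each other, at gaps of at most 50 kb. The build is one that the table does not name. Of the members, 9 matched more than 1 gene, and only the first-listed match was placed. On chromosome 4, between 17559742 and 17598829, lie the first matches of CYP81F1, CYP81F1-like and the CYP81D11-like transcripts LOC103854185 and LOC103862536. LOC103854185 also matches a gene on chromosome 3. Of these 4, CYP81F1 was highest in lateral secretory nectaries and the other 3 in median post-secretory nectaries. On chromosome 3, between 9565627 and 9590972, lie 3 genes that are the first matches of CYP71B17-like, CYP71B22 and both CYP71B19-like transcripts. CYP71B17-like and CYP71B19-like LOC103875315 were highest in lateral secretory nectaries, and CYP71B22 and CYP71B19-like LOC103854381 in median post-secretory nectaries. The pair CYP72A13-like and CYP72A15, matched between 4924960 and 4939310 on the same chromosome, was highest in median secretory nectaries.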
